A study of Mus musculus with 40 samples.

Results

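The miRNAs described here are products of the miR-99, miR-100 and miR-125 hairpins, 10 of 1978 mature mouse miRNAs in the counts. They were chosen by name from 3 clusters in which a miR-99 or miR-100 hairpin lies upstream of a let-7 and a miR-125 hairpin. The let-7 arms and miR-100-3p are also in the counts, but they are not among the 10 and are given as relatives. One further choice used measured values: miR-125b-5p is made from hairpins on chromosomes 9 and 16 and is listed once for each, with 7255995 and 7205783 counts over all libraries, and the listing with the higher total was taken. Both miR-99a-5p and miR-125b-5p had attracted attention in earlier work on these libraries, and the study counts miR-125b-5p among miRNAs it selected for being lower in older transgenic mice.

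Each of these miRNAs is cut from a hairpin, whose 5p and 3p arms are trimmed to short RNAs, and one arm is usually loaded into Argonaute while the other is degraded. The loaded miRNA then represses messenger RNAs that match its seed, the stretch near its 5′ end. The miR-125 family is the vertebrate relative of lin-4, the first miRNA to be described in worms, and miR-125b is abundant in neurons and known for roles at synapses. The miR-99/100 family is related to miR-10 and is best known for repressing mTOR and components of insulin-like growth factor signaling.

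The mature sequences show which members can share targets and which can be told apart by sequencing. They are taken from RefSeq on GRCm38.p6, 5′ to 3′, with the seed (bases 2 to 8) in capitals, grouped by shared seed, and the prefix mmu of the full names, for mouse, is left out elsewhere.
mmu-miR-99a-5p: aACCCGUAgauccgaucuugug
mmu-miR-100-5p: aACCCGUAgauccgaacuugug
mmu-miR-99b-5p: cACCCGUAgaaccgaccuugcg
mmu-miR-99a-3p: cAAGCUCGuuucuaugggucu
mmu-miR-99b-3p: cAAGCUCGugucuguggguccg
mmu-miR-125a-5p: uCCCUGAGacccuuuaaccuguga
mmu-miR-125b-5p: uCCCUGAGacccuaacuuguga
mmu-miR-125a-3p: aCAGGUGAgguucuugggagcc
mmu-miR-125b-1-3p: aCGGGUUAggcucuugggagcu
mmu-miR-125b-2-3p: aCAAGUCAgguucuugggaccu

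The 5p arms of miR-99a, miR-99b and miR-100 carry 1 seed, ACCCGUA, which no other miRNA in the counts carries. Counting positions from 1 at the 5′ end, miR-100-5p differs from miR-99a-5p at a single base, U16A, and miR-99b-5p differs from miR-99a-5p by A1C, U11A, U16C and U21C. A read of miR-100-5p with an error at base 16 would therefore look like miR-99a-5p, and the mismatch setting of the authors' counting is not given in the sources used here. miR-125a-5p and miR-125b-5p share their first 13 bases and the seed CCCUGAG, which miR-351-5p, miR-6367 and miR-6394 also carry. The passenger arms miR-125b-1-3p and miR-125b-2-3p have different seeds and are the only products that separate the mir-125b hairpin on chromosome 9 from that on chromosome 16.

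In the GENCODE annotation of GRCm38, Mir99a (chr16:77598936-77599000), Mirlet7c-1 and Mir125b-2 (chr16:77646273-77646343) lie within 47408 bases in introns of the noncoding host gene Mir99ahg. Mir125b-2 also overlaps an exon of C130023A14Rik, and Mir99a and Mirlet7c-1 lie opposite an intron of the protein-coding gene Gm11146. Mir100 (chr9:41531425-41531504), Mirlet7a-2 and Mir125b-1 (chr9:41581926-41582002) lie within 50578 bases in introns of the noncoding transcripts 3110039I08Rik and Gm49317, where Mir125b-1 also overlaps an exon of Gm28119, and Mir100 one of Gm48742 on the other strand. Mir99b (chr17:17830188-17830257), Mirlet7e and Mir125a (chr17:17830812-17830879) are packed into 692 bases of the protein-coding gene Spaca6, with Mir99b and Mirlet7e in an intron and Mir125a overlapping an exon. All hairpins are on the plus strand.

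Small RNA was sequenced from the hippocampal sub-region CA1 of 40 C57Bl/6J mice, 1 library per mouse. CamKIIδC TG mice, which overexpress the δC form of calcium/calmodulin-dependent protein kinase II and serve as a model of heart failure, were compared with wild-type littermates, without further treatment, in males and females. The 3-month groups held 9 TG and 5 wild-type animals, and the 6-month groups 11 and 15, by the sample titles, which for TG mice are not the numbers given in the paper. The promoter that drives the transgene is not given in the sources used here. For 3-month wild-type control mice 1 and 2 the genotype field says TG whereas the title says wild-type, and the title was used. Tissue was bulk, so a lower level can mean fewer cells of a type or less RNA per cell, which cannot be told apart. Nothing in the labels gives a sequencing date or batch.

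Library depth differed with age, and this touches every result below. Total counts per library ranged from 13200774 to 36547011 in 3-month TG mice (median 29499287), and from 2656368 to 25243920 in 6-month TG mice (median 13894826). Medians in wild-type animals were 22455957 at 3 months and 14908612 at 6 months. Levels are given as CPM, counts scaled to 1000000 per library, with TMM factors over all 40 libraries, and a floor of 3 counts equals 0.101 to 1.91 CPM on this scale, which covers counting error only. Each age or genotype difference was tested with edgeR's quasi-likelihood test over all miRNAs with Benjamini-Hochberg adjustment, and a miRNA was called altered at an adjusted p under 0.05 with a log2 fold change (log2FC) beyond 0.26, the thresholds of the study.

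**Figure D1:**
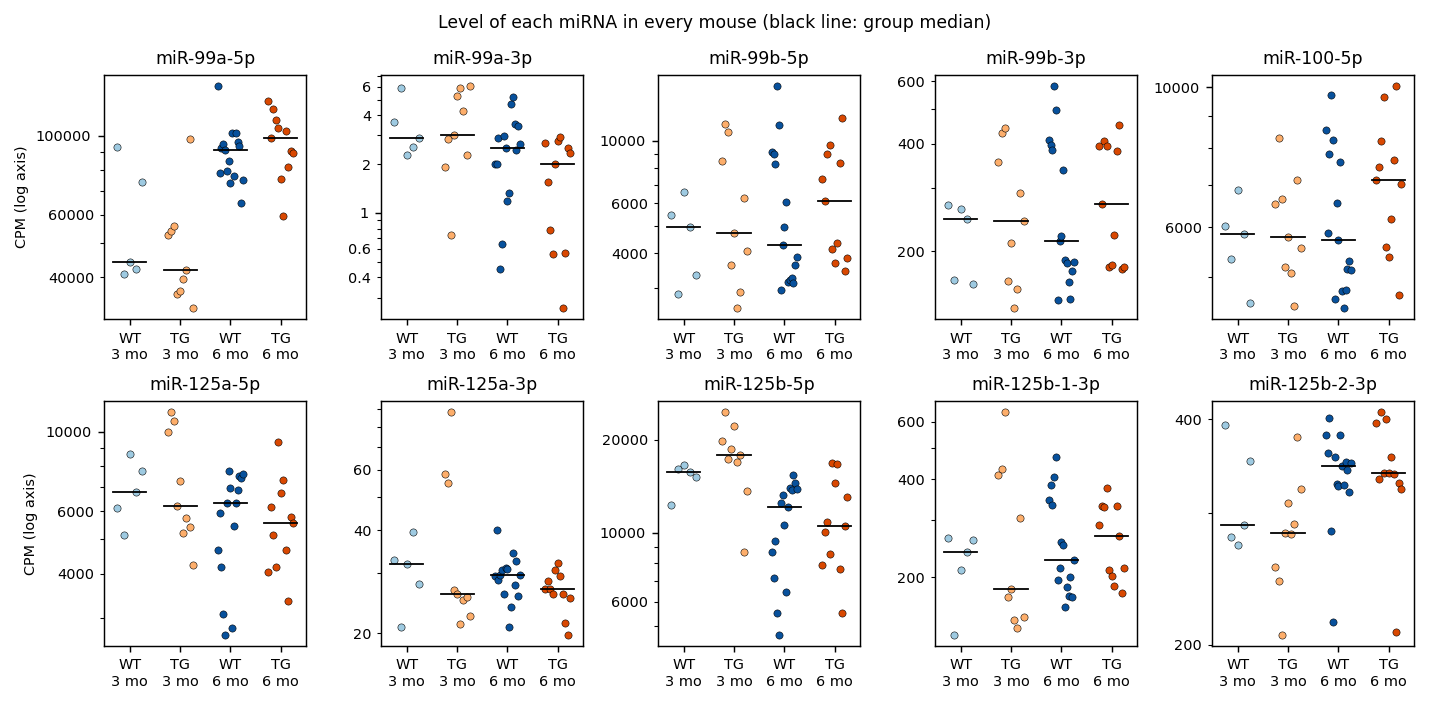
Each point is 1 mouse, the y axis is the level in CPM on a log axis, and the black line is the median of the group (5, 9, 15 and 11 mice from left to right in each panel). miR-99a-5p lies between 32776 and 55696 CPM in 8 of 9 TG mice at 3 months and between 59675 and 125276 CPM in TG mice at 6 months.

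The members spanned more than 4 orders of magnitude. miR-99a-5p ranked 3 of 1978 miRNAs by mean level (78529 CPM), ahead of miR-125b-5p (rank 16, 12993 CPM), miR-100-5p (6422 CPM), miR-125a-5p (6216 CPM) and miR-99b-5p (6051 CPM). The passenger arms miR-125b-2-3p (325 CPM), miR-99b-3p (275 CPM) and miR-125b-1-3p (264 CPM) came next, followed by miR-125a-3p at 30.9 CPM. miR-99a-3p, the passenger of the most abundant member, averaged 2.66 CPM and had 3 counts or fewer in 4 libraries. Among the 5 abundant guide arms, miR-100-5p, miR-125a-5p and miR-99b-5p had means within the spread between mice.

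In TG mice, miR-99a-5p was higher and miR-125b-5p lower at 6 months than at 3 months, and these were 2 of 10 members called (1 up, 1 down). Over all 629 miRNAs tested, 15.7% were called, 7.47% upward and 8.27% downward, so the count of members is near the background. The split over all miRNAs depended on the scaling: 47 rose and 52 fell here, 32 and 76 with library totals, and 3 and 265 with spike-in totals. The median log2FC of the members was 0.049, against -0.088 over all miRNAs tested (-0.29 with library totals and -0.72 with spike-in totals), and 5 members had a positive and 5 a negative log2FC. Before adjustment, 4 members had an unadjusted p under 0.05, against 32.4% of all miRNAs. All 10 members passed the filter on low counts in every comparison.

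miR-99a-5p, the guide arm of the chromosome 16 cluster, had a lowest, median and highest level of 32776, 42053 and 97524 CPM in 9 TG mice at 3 months. At 6 months these levels were 59675, 98744 and 125276 CPM in 11 TG mice. Every 6-month TG mouse was above the 3-month median and 6 were above the highest 3-month mouse, while 8 of the 9 younger mice were below the lowest older one; the groups overlapped because of 3-month mouse 8. Its mean was 49663 ± 19860 CPM in the younger mice (SD, n = 9) and 96172 ± 19382 CPM in the older (SD, n = 11), and the log2FC was 1.01 (SE 0.20, edgeR adjusted p = 0.00172). Without mouse 8 the call was kept, with a log2FC of 1.20 (edgeR adjusted p = 4.036e-05). Since miR-99a-5p had attracted attention in earlier work on these libraries, its test is not independent evidence.

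The level of miR-99a-5p in wild-type animals at 3 months was 92606, 40932, 44162, 42335 and 74087 CPM in mice 1 to 5. At 6 months the lowest, median and highest of 15 mice were 64593, 91119 and 138083 CPM. Here too every older mouse was above the 3-month median, and 6 were above the highest younger mouse, but mice 1 and 5 lay within the 6-month range. The log2FC was 0.65 (SE 0.19, edgeR adjusted p = 0.179), which did not pass the threshold. Without mouse 1, whose genotype field says TG, it was 0.87 (edgeR adjusted p = 0.0330) and was called.

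The 3-month mice that reached the 6-month range of miR-99a-5p were among the shallow ones, though not every shallow one reached it. TG mice 2 and 3 had 17146603 and 13377760 total counts at 3 months, yet stayed at 55696 CPM or lower. The lowest 6-month TG mouse was at 59675 CPM. TG mouse 8 had 13200774 total counts, and wild-type control mice 1 and 5 had 12006095 and 14052092, whereas the 3-month mice with 22455957 counts or more had miR-99a-5p levels of 32776 to 52507 CPM. Over the 9 TG mice at 3 months the log2 level and the log2 total count had r = -0.86, over the 11 TG mice at 6 months r = -0.08, and over the 15 wild-type control mice at 6 months r = -0.15, while the 5 wild-type mice at 3 months are too few for a correlation. With the log2 total count as a covariate, the difference in TG mice was 0.79 (SE 0.19, edgeR adjusted p = 0.00814). Within the range of depths that both ages share (13200774 to 25243920 counts, with 4 younger and 6 older TG mice) it was 0.47 (SE 0.26, edgeR adjusted p = 0.156), and the call was lost. The 4 younger mice were mice 1, 2, 3 and 8, and without mouse 8 the difference in this range was 0.66 (SE 0.23, edgeR adjusted p = 0.0294), which was called. Why level and depth moved together was not tested.

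**Figure D2:**
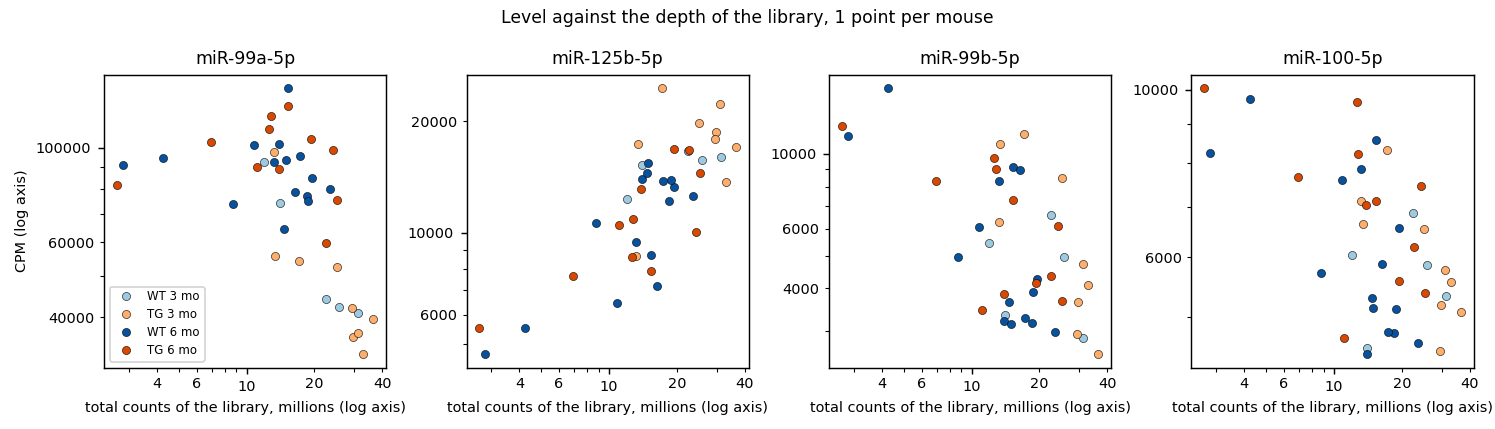
Each point is 1 mouse, with the total counts of its library on the x axis in units of 1000000 counts and the level in CPM on the y axis, both on log axes. The deepest libraries are mostly of 3-month mice, and miR-99a-5p is lowest and miR-125b-5p mostly high in them, while miR-99b-5p and miR-100-5p are mostly lower in the deeper libraries.

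miR-125b-5p, which is known to act at synapses and whose reads cannot be assigned to 1 of its hairpins, had a lowest, median and highest level of 8671, 17896 and 24573 CPM in TG mice at 3 months. At 6 months the levels were 5532, 10507 and 16821 CPM. All 11 older TG mice were below the 3-month median and 4 were below the lowest younger mouse, which was again mouse 8. The mean was 17747 ± 4622 CPM at the younger age (SD, n = 9) and 11105 ± 3755 CPM at the older (SD, n = 11), with a log2FC of -0.62 (SE 0.19, edgeR adjusted p = 0.0266). Since the study picked this miRNA for a decrease in the same mice, the direction is not independent evidence.

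That call was lost without either of 2 mice and with depth in the fit. Without 3-month TG mouse 2 the log2FC was -0.56 (edgeR adjusted p = 0.0507) and without mouse 5 it was -0.59 (edgeR adjusted p = 0.0547). With depth as a covariate it was -0.43 (SE 0.19, edgeR adjusted p = 0.147), and in the shared range of depths -0.43 (SE 0.27, edgeR adjusted p = 0.204), which became -0.72 (SE 0.23, edgeR adjusted p = 0.0203) without mouse 8. Across all 40 libraries the level of miR-125b-5p and the total count had r = 0.78 (rho = 0.70), and within groups r = 0.71 (rho = 0.54, and r = 0.57 without the 2 libraries farthest in depth).

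For miR-125b-5p the wild-type levels were 12349, 16029, 16568, 15715 and 15205 CPM in 3-month mice 1 to 5, and 4698, 12154 and 15378 CPM as the lowest, median and highest of 15 mice at 6 months. All 15 older mice were below the 3-month median, and 8 were below the lowest younger mouse. The log2FC was -0.46 (SE 0.21, edgeR adjusted p = 0.316), with no call.

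The other products of the chromosome 16 cluster did not pass the test in TG mice. miR-125b-2-3p, the passenger arm made from the hairpin in Mir99ahg, had 206, 282 and 379 CPM as the lowest, median and highest of the younger and 208, 339 and 409 CPM of the older TG mice, with 10 of 11 older mice above the 3-month median. The log2FC was 0.34 (SE 0.12, edgeR adjusted p = 0.0524), and under scaling to the spike-in totals its sign turned (-0.36). miR-99a-3p had 0.734, 3.03 and 6.09 CPM at 3 months and 0.258, 2.01 and 2.94 CPM at 6 months, with every older mouse below the 3-month median. Its log2FC was -0.92 (SE 0.34, edgeR adjusted p = 0.0650), and 0.26 in the shared range of depths, where the sign turned. Those of miR-99a-3p rest on 1 to 175 counts per library. DESeq2 called both (adjusted p = 0.0235 for miR-125b-2-3p and 0.0257 for miR-99a-3p), and in edgeR miR-125b-2-3p was called without 3-month TG mouse 8 (log2FC 0.40, adjusted p = 0.0137) and miR-99a-3p without mouse 1, 3 or 8 (adjusted p = 0.0469, 0.0254 and 0.04998).

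On chromosome 9, miR-100-5p, the closest relative of miR-99a-5p in sequence, was not called. It had 4514, 5784 and 8320 CPM as the lowest, median and highest of the younger TG mice and 4698, 7122 and 10053 CPM of the older, with groups that overlapped widely and a log2FC of 0.33 (SE 0.18, edgeR adjusted p = 0.212). Scaled to spike-in totals, or in the shared range of depths, that sign turned (-0.37 and -0.18). miR-125b-1-3p, the passenger arm of the same cluster, ranged from 140 to 643 CPM in the younger and from 179 to 375 CPM in the older TG mice, with a log2FC of -0.084 (SE 0.30).

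On chromosome 17, none of the 4 members was called. miR-99b-5p ranged from 2553 to 11435 CPM at 3 months and from 3453 to 12093 CPM at 6 months in TG mice (log2FC 0.18, SE 0.34), and its passenger miR-99b-3p followed (log2FC 0.20, SE 0.28). These are wide ranges: mice of 1 group differed 4.48-fold at 3 months and 3.50-fold at 6 months in miR-99b-5p. In the shared range of depths both turned to a decrease that was called, with log2FC of -0.94 (edgeR adjusted p = 0.00958) and -0.70 (edgeR adjusted p = 0.0310). The 4 younger mice in that range (1, 2, 3 and 8) had the highest miR-99b-5p levels of their group, at 8495, 11435, 10724 and 6286 CPM, while the other 5 had 2553 to 4730 CPM. Without mouse 3 neither miRNA was called there (log2FC -0.82 and -0.59), and without mouse 2 miR-99b-3p was not (-0.76, edgeR adjusted p = 0.0598).

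miR-125a-5p, the guide arm that shares a seed with miR-125b-5p, had a median of 6217 CPM in the younger and 5558 CPM in the older TG mice (log2FC -0.35, SE 0.21, edgeR adjusted p = 0.252). miR-125a-3p was 58.1, 54.9 and 88.3 CPM in 3-month TG mice 1, 2 and 3, and between 21.3 and 26.8 CPM in the other 6. The 11 older TG mice lay between 19.9 and 32.0 CPM, so the log2FC of -0.52 (SE 0.26, edgeR adjusted p = 0.172) came with 3 high mice. The same 3 mice had the 3 highest 3-month TG levels of miR-99b-5p, miR-125a-5p and miR-125b-1-3p. In the shared range of depths, where these are 3 of the 4 younger mice, miR-125a-3p (log2FC -1.01, edgeR adjusted p = 0.0107) and miR-125b-1-3p (-0.94, edgeR adjusted p = 0.00958) were called, and without mouse 3 neither was.

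Between 3 and 6 months in wild-type control mice, 0 of 10 members was called by edgeR, where 1 of 660 miRNAs (0.152%) was called. Before adjustment, 2 members, miR-99a-5p and miR-125b-5p, had a p under 0.05, against 15.5% of all miRNAs; DESeq2 called 1 member, miR-99a-5p (log2FC 0.65, adjusted p = 0.0280), and DESeq2 with 1 factor of unwanted variation, closer to the study's own method, called 5 members and 205 miRNAs. The log2FC of both miRNAs had the same signs as in TG mice. The values of the 10 members ran from -0.46 to 0.65, with a median of 0.16 against -0.019 over all miRNAs. In the shared range of depths, with 3 younger and 11 older mice, miR-99a-5p had a log2FC of 0.34 and miR-125b-5p of -0.27, and neither was called.

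Between genotypes, none of the 10 members passed the test at either age. At 3 months 0 of 10 members was called (0% of 695 miRNAs, and 1.01% had an unadjusted p under 0.05), with log2FC of TG over wild-type from -0.26 for miR-99a-5p to 0.38 for miR-99b-5p. At 6 months 0 of 10 was called (0% of 612, and 0.49% with an unadjusted p under 0.05), with log2FC from -0.51 for miR-99a-3p to 0.21 for miR-100-5p. No member had an unadjusted p under 0.05 in either comparison by edgeR, and DESeq2 called none of them. With 1 and 2 factors of unwanted variation, DESeq2 called 0 and 1 members at 3 months, and 7 and 87 of 695 miRNAs. At 6 months these fits called 0 members, and 3 and 4 of 612 miRNAs. The SE of miR-99a-5p was 0.28 at 3 months and 0.13 at 6 months, so that small genotype differences were not detectable at the younger age.

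The difference between the age effects of both genotypes was itself tested as an interaction over the 40 mice. No member was called (0% of 699 miRNAs, and 2% with an unadjusted p under 0.05, among them no member). The interaction was 0.34 (SE 0.28, edgeR adjusted p = 0.986) for miR-99a-5p and -0.19 (SE 0.29, edgeR adjusted p = 0.986) for miR-125b-5p. The age effect of miR-99a-5p passed the threshold in TG but not in wild-type control mice, and a difference between the genotypes was not shown.

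**Figure D3:**
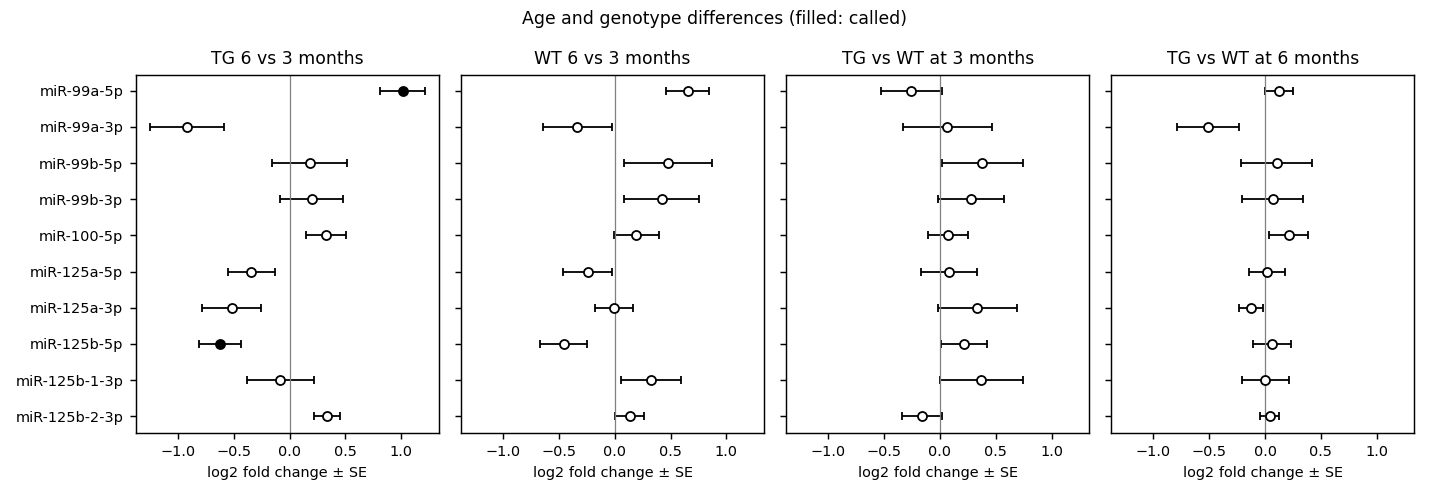
Log2FC with its SE for each member in 4 comparisons; filled points were called. miR-99a-5p and miR-125b-5p in the comparison of TG mice by age are the filled points, while in wild-type control mice the same miRNAs lie at 0.65 and -0.46 without a call; under scaling to spike-in totals miR-99b-5p, miR-99b-3p, miR-100-5p and miR-125b-2-3p change sign in TG mice.

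Ratios of a 5p to a 3p count are free of library scaling, because both counts come from the same library. For miR-99a, miR-99b and miR-125a these are arms of 1 hairpin, whereas miR-125b-5p comes from hairpins on chromosomes 9 and 16 and was set against the 3p arm of each. In TG mice the ratio of miR-99a-5p to miR-99a-3p had a lowest, median and highest value of 5383, 11869 and 75839 at 3 months and 20314, 52205 and 400520 at 6 months. Among the older mice 4 of 11 were above every younger mouse, and the difference in log2 ratio was 2.07 (SE 0.53, limma adjusted p = 0.0172). miR-99a-3p had 5 to 175 counts per library in the younger and 1 to 52 in the older TG mice, so this ratio rests on few counts. The ratio of miR-125b-5p to miR-125b-2-3p was 22.9, 66.4 and 101 at 3 months and 19.9, 30.2 and 47.0 at 6 months, with a difference of -0.97 (SE 0.24, limma adjusted p = 0.0158). These were 2 of 5 arm ratios called, where 15.6% of 212 ratios were called over all hairpins.

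The remaining ratios in TG mice were not called. miR-125b-5p over miR-125b-1-3p differed by -0.76 (SE 0.37), miR-125a by 0.0070 (SE 0.18) and miR-99b by 0.016 (SE 0.13), so the arms of mir-99b kept a ratio of 16.8 to 26.7 in the younger and 18.5 to 26.8 in the older TG mice. By age in wild-type animals 0 of 5 ratios was called (0% of 205 by limma). There miR-99a differed by 1.20 (SE 0.44, limma adjusted p = 0.227) and miR-125b-5p over miR-125b-2-3p by -0.67 (SE 0.25, limma adjusted p = 0.227). Between genotypes 0 of 5 was called at 3 months (0% of 224) and at 6 months (0% of 196).

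The calls of the arm ratios were also lost with depth in the fit. With depth as a covariate the difference of the miR-99a ratio in TG mice was 1.20 (SE 0.48, limma adjusted p = 0.142) and that of miR-125b-5p over miR-125b-2-3p was -0.79 (SE 0.27, limma adjusted p = 0.0860). In the shared range of depths they were 0.13 (SE 0.44) and -0.81 (SE 0.41), and neither was called. The miR-99a ratio rests on the few counts of miR-99a-3p.

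**Figure D4:**
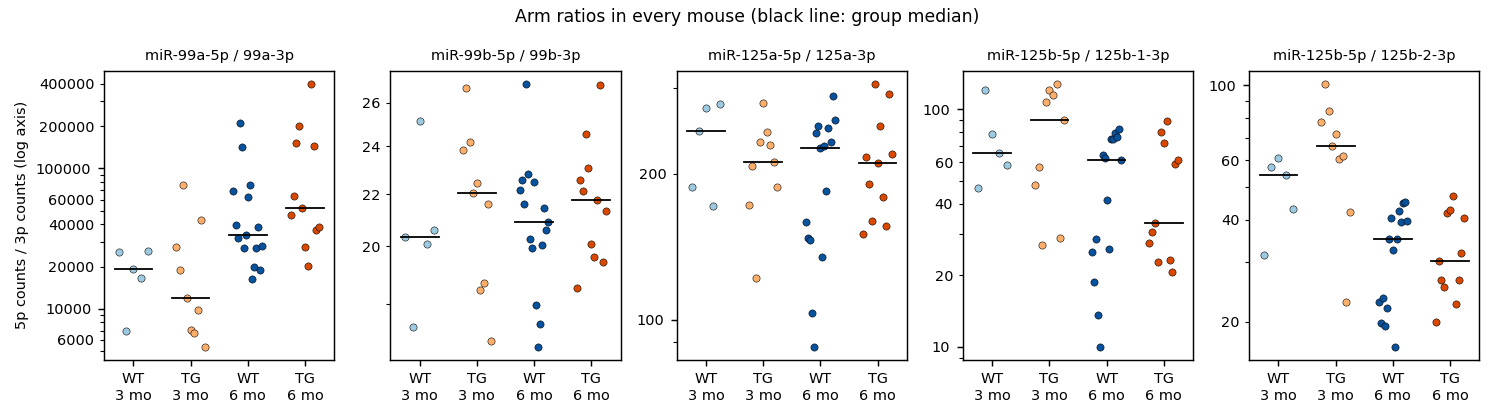
Counts of the 5p over counts of the 3p miRNA, on a log axis, with 1 point per mouse and the group median as a black line, where miR-125b-5p holds the product of both of its hairpins. The miR-99a ratio is 20314 or more in all 11 TG mice at 6 months, while the miR-99b ratio stays between 16.7 and 26.9 in the 4 groups.

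Products made only from hairpins in Mir99ahg differed in level, and whether their age differences diverge was not tested. By age in TG mice the log2FC was 1.01 for miR-99a-5p, 0.34 for miR-125b-2-3p, 0.0030 for let-7c-1-3p and -0.92 for miR-99a-3p. Wild-type animals had 0.65, 0.13, -0.039 and -0.34 in the same order. miR-125b-5p is also made from a hairpin outside Mir99ahg, so its ratio to miR-99a-5p cannot show how products of that gene differ with age. Within a library, miR-99a-5p exceeded miR-125b-5p by 1.66 to 11.2 times in TG mice at 3 months (median 2.35) and by 3.57 to 15.9 times at 6 months (median 9.82). In wild-type control mice it did so by 2.55 to 7.50 times (median 2.69) and by 4.47 to 19.4 times (median 6.95). At 6 months the ratio was 9.82 or more in wild-type control mice 1 to 5 and 9 and in TG mice 1 to 4, 8 and 9. It was 8.59 or less in the other 6-month mice, so the medians depend on how many of each a group held. miR-99a-5p exceeded let-7c-5p, whose sequence is also made from a second let-7c hairpin, by a median of 1.48 times in the younger and 3.45 times in the older TG mice. These ratios combine the tested differences above and add no test of their own. The ratio of miR-99b-5p to miR-100-5p, from different chromosomes, had medians of 0.818 and 0.818 in TG mice at both ages and of 0.842 and 0.758 in wild-type control mice.

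The mouse-to-mouse variation sorted the members into groups that cut across the clusters. After the group means were removed, miR-99b-5p correlated over the 40 libraries with miR-99b-3p (r = 0.98, rho = 0.97), with miR-100-5p (r = 0.90, rho = 0.90) and with miR-125b-1-3p (r = 0.88, rho = 0.88). Leaving out the 2 libraries farthest from the median gave 0.97, 0.87 and 0.87. miR-125a-5p and miR-125b-5p, which share a seed and their first 13 bases, had r = 0.82 (rho = 0.79, and 0.77 without the 2 farthest). By contrast miR-99b-5p and miR-125a-5p, made within 692 bases of each other, had r = -0.29 (rho = -0.20), and miR-99a-5p and miR-125b-2-3p of Mir99ahg had r = 0.33 (rho = 0.31). All points share their library and its depth: within groups the total count had r = -0.66 with miR-99b-5p, -0.59 with miR-100-5p, -0.56 with miR-125b-1-3p, 0.45 with miR-125a-5p and 0.73 with miR-99a-3p. The 6-month mice were also split. miR-99b-5p over miR-125a-5p was 1.52 to 5.10 in wild-type control mice 1 to 5 and 9, and 0.417 to 0.712 in the others. In TG mice 1 to 4, 8 and 9 it was 0.989 to 3.60, and 0.444 to 0.692 in the others. Removing group means leaves this split in place, and its part in the correlations was not tested.

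**Figure D5:**
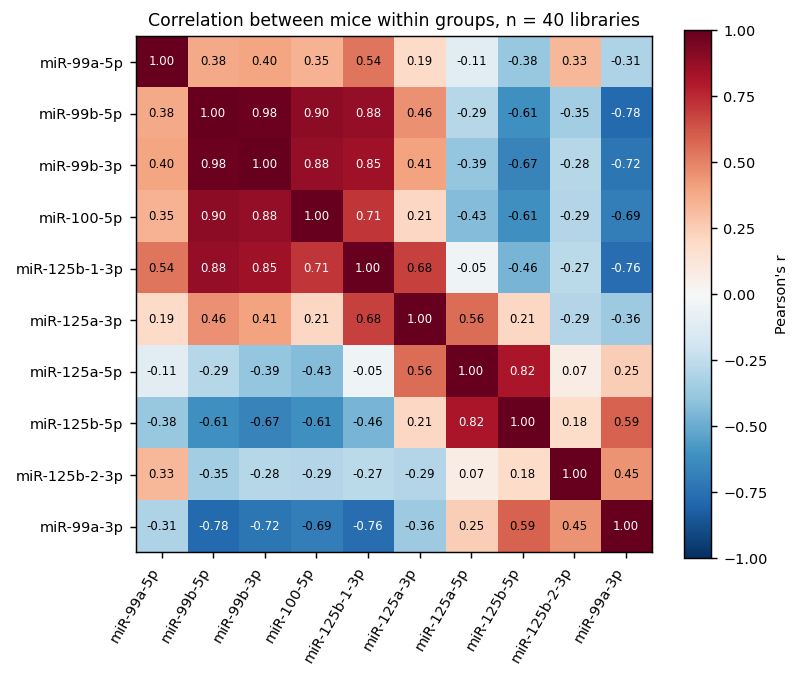
Pearson's r between members over 40 libraries after removing group means, with red for positive and blue for negative values. miR-99b-5p, miR-99b-3p, miR-100-5p and miR-125b-1-3p form a block with r between 0.71 and 0.98, and miR-125a-5p and miR-125b-5p a pair with r = 0.82.

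Outside the clusters, the miRNAs whose variation was most like that of each guide arm were sought among the 187 miRNAs whose mean reached 100 CPM, again over 40 libraries. For miR-99a-5p these were miR-330-5p (r = 0.90) and miR-434-5p (r = 0.84). For miR-99b-5p they were miR-106b-3p (r = 0.98) and miR-30a-3p (r = 0.97), and for miR-100-5p miR-532-5p (r = 0.93) and miR-30e-3p (r = 0.92). let-7b-5p (r = 0.85) and let-7d-5p (r = 0.76) were nearest to miR-125a-5p, and let-7d-5p (r = 0.85) and miR-433-3p (r = 0.83) to miR-125b-5p.

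The let-7 miRNAs of the same clusters, known for promoting differentiation, were not called: 0 of 5 tested in TG mice by age, with log2FC from -0.43 for let-7a-5p to 0.0030 for let-7c-1-3p. The level of let-7a-5p was 24676, 29066 and 38953 CPM in 3-month TG mice 1, 2 and 3, and 12128 to 16163 CPM in the other 6, beside 12331 to 16201 CPM in the older TG mice. The sixth, let-7a-2-3p, was at 3 counts or fewer in 13 libraries and fell under the filter. let-7c-5p, which flanks miR-99a, had a median of 26743 CPM in the younger and 26540 CPM in the older TG mice (log2FC -0.15, SE 0.17). miR-100-3p, the other arm of mir-100, averaged 0.520 CPM, and had 3 counts or fewer in 12 libraries. Among relatives outside the clusters, miR-351-5p, with the seed of miR-125, had a log2FC of -0.40 (edgeR adjusted p = 0.0856), miR-10a-5p of 0.84 (adjusted p = 0.176) and miR-10b-5p of -0.24 (adjusted p = 0.828), none of them called.

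Summed over a shared seed, the members' share of all miRNA counts followed the abundant arm. The seed ACCCGUA took 5.45, 5.65 and 9.84% of counts (lowest, median, highest) in TG mice at 3 months and 7.75, 9.78 and 12.7% at 6 months, and miR-99a-5p made up a median of 77.7% and 87.9% of it. Medians in wild-type animals were 6.34% and 9.88%. The seed CCCUGAG of miR-125a-5p and miR-125b-5p took 1.25, 2.75 and 3.41% in the younger and 0.816, 1.41 and 2.91% in the older TG mice, with medians of 2.57% and 2.05% in wild-type control mice. All 10 members together took a median of 8.76% and 11.6% in TG mice and of 9.20% and 12.0% in wild-type control mice. These sums are descriptions and carry no test.

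Markers of other cells were counted beside the age comparison in TG mice, where a rise or fall below is a call. Over all 629 miRNAs tested there, 7.47% were called up and 8.27% down. The lists are short and were not tested as sets. The neuron list (miR-124-3p, miR-9-5p, miR-128-3p, miR-132-3p and miR-138-5p) summed to 179457 to 319537 CPM at 3 months and 198338 to 347115 CPM at 6 months. In it 1 of 5 was called up, with log2FC from -0.66 for miR-124-3p to 0.73 for miR-128-3p. Choroid plexus markers rose in 2 of 3 (summed 309 to 752 CPM, then 627 to 1028 CPM). The third, miR-449a-5p, had a log2FC of -0.86 (edgeR adjusted p = 0.136) and was at 0 in some older mice. Oligodendrocyte markers fell in 2 of 3 (1216 to 2453 CPM, then 805 to 1338 CPM, with miR-219a-5p at 0 in some older mice), and vascular markers rose in 1 of 4 (9975 to 16975 CPM, then 13368 to 19299 CPM). Of the erythroid markers 1 of 5 rose and 2 fell (487 to 1209 CPM, then 665 to 983 CPM), and of the microglia and leukocyte markers 0 of 4 was called (196 to 375 CPM, then 223 to 659 CPM). From the muscle list 1 of 4 tested fell (645 to 1768 CPM, then 392 to 723 CPM), and the cardiac miR-208a-3p had 1 count in a single library and 0 in the other 39. The part of these cells in the levels of the members was not tested.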

How the data were processed

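The members and lists were chosen with earlier results of these data known. Small RNA libraries were prepared with NEBNext chemistry and sequenced on a HiSeq platform. The authors trimmed 3′ adapters with cutadapt (version 2.8 in the submitters' processing notes, another version in the paper), mapped and counted reads with mirdeep2 on mm10 with miRBase annotation, and deposited raw counts per pair of mature miRNA and precursor. They also deposited values in RPM (called TPM in the paper), which equal each count scaled to 1000000 counts of its library within 0.005. The totals hold 52 rows of UniSp spike-in oligos (0.0852 to 0.252% of counts), left out here, and reads counted on several precursors enter more than once. The study used DESeq2 with RUVSeq.

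Each mature miRNA was taken from its precursor with the highest total. edgeR (version 4.0.16, R 4.3.3) was fitted per comparison with filterByExpr (minimum count 10, minimum total 15), TMM and the robust quasi-likelihood test, with Benjamini-Hochberg adjustment over all miRNAs tested; the interaction used all 4 groups. Arm ratios, log2 of (5p + 0.5) over (3p + 0.5) for hairpins with a mean of at least 10 counts per arm, were tested with limma (3.58.1). Ratios in the text are of the counts as deposited. Alternatives included DESeq2 (1.42.0), RUVr factors computed from their definition, other scalings and filters, and mice left out; those on depth and without shallow libraries were chosen after the data were seen. Fits were tested on simulated counts. Named miRNAs are the 10 members, 10 relatives, and the 2 non-members most correlated with each guide arm. p-values treat mice as replicates, as the labels number them.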

Additional observations from a re-analysis of the deposited data

Results flagged for a closer look

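One level stood apart within its group: miR-99a-5p in 3-month TG mouse 8, at 97524 CPM. The nearest other mouse of that group was at 55696 CPM, and the gap took 0.646 of the range of the group, above Dixon's critical value for 9 mice. This was the 1 level or arm ratio set apart among 30 tested, all in the 3-month groups, where chance sets apart about 1 in 20. The groups of older mice were not tested for levels set apart. The library of this mouse was the shallowest of its group, and whether depth accounts for the level was not tested.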

How the results depend on the processing

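The directions of miR-99a-5p (up) and miR-125b-5p (down) with age held under every alternative run in both genotypes, while their calls in TG mice did not. The call of miR-99a-5p was lost when counts were scaled to spike-in totals (log2FC 0.45, adjusted p = 0.0615) and in the depth range shared by both ages. miR-125b-5p lost its call in that range, with depth as a covariate, and without 3-month TG mouse 2 or 5. Both were called in that range once mouse 8 was left out. The cause of these changes was not tested. In the range, 4, 3, 0 and 8 members were called without 3-month TG mouse 1, 2, 3 and 8 in turn, in place of 4. Counts over all miRNAs in these fits are not given here, so these numbers cannot be set against the background. In the shared range fewer mice were compared, yet more miRNAs were called than with all TG mice. miR-99a-3p had as few as 1 count in the poorest libraries, which lie below that range in depth.

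Instead of 2 members in TG mice by age, DESeq2 called 4, DESeq2 with 1 or 2 factors of unwanted variation 4 and 6, the joint fit of the 4 groups 4, scaling to spike-in totals 7, depth as a covariate 1 and the shared depth range 4. Leaving out each 3-month TG mouse gave 1 to 4 members, with 1 without mouse 2 or 5, 3 without mouse 1 or 3 and 4 without mouse 8. In wild-type control mice the count of 0 became 1 with DESeq2, 5 with 1 factor and 5 with 2, and 0 to 1 with a mouse left out (1 without mouse 1). Between genotypes at 3 months, 2 factors gave 1 member and 87 of 695 miRNAs (51 up, 36 down). Of the arm ratios in TG mice, 0 were called with depth as a covariate, 0 in the shared depth range and 2 with a mouse left out. With a mean of at least 50 counts per arm 1 was called, and the miR-99a ratio fell under that filter and was not tested. Over all 629 miRNAs tested in TG mice, the 99 calls (47 up, 52 down) became 302 and 312 with 1 and 2 factors. Spike-in totals gave 268 calls (3 up, 265 down), the shared depth range 219, and library totals 108 (32 up, 76 down). A count of members with no count over all miRNAs beside it cannot be set against the background. None of these counts is a result about the members. The 1 call among 660 miRNAs in wild-type control mice became 15 with DESeq2, 205 and 219 with 1 and 2 factors, and 2 with library totals. The 33 arm ratio calls became 15 and 67 under the depth alternatives. Spike-in totals moved the median log2FC of all miRNAs in TG mice to -0.72 and library totals to -0.29.

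The following signs turned, none of a value that was called under the settings of the report, though the decreases of miR-99b-5p and miR-99b-3p in TG mice were called with spike-in totals and in the shared depth range. With spike-in totals in TG mice by age, the log2FC became -0.40 for miR-99b-5p, -0.42 for miR-99b-3p, -0.37 for miR-100-5p and -0.36 for miR-125b-2-3p. In wild-type control mice they became -0.011, -0.037, -0.20 and -0.075, with -0.023 for miR-125b-1-3p, and with library totals -0.055 for miR-100-5p and -0.029 for miR-125b-2-3p. Between genotypes, spike-in totals gave 0.058 for miR-99a-5p at 3 months, -0.063 for miR-125b-5p at 6 months and -0.050 for the interaction of miR-99a-5p. Library totals gave -0.062, and limma with a pseudocount of 1 or 0.1 gave -0.024 and -0.024, for miR-125b-5p at 6 months. In the shared depth range TG mice had -0.94 for miR-99b-5p, -0.70 for miR-99b-3p, -0.18 for miR-100-5p and 0.26 for miR-99a-3p, and in the same range without 3-month TG mouse 1, 2, 3 and 8 in turn these were -1.06, -0.94, -0.82 and -1.17 for miR-99b-5p, -0.82, -0.76, -0.59 and -0.90 for miR-99b-3p, -0.28, -0.19, -0.17 and -0.24 for miR-100-5p, and 0.20, 0.42, 0.039 and 0.30 for miR-99a-3p. Arm ratio differences in the range were 0.51 for miR-125b-5p over miR-125b-1-3p and -0.21 for miR-99b. Wild-type control mice had -0.065 for miR-99b-5p, -0.025 for miR-100-5p, -0.049 for miR-125b-1-3p, 0.095 for miR-99a-3p and -0.11 for the miR-99b ratio, and the genotype difference of miR-99a-5p at 3 months was 0.15. Depth as a covariate gave -0.39 and -0.28 for miR-99b-5p and miR-99b-3p in TG mice, -0.14, -0.069, -0.068 and -0.033 for miR-99b-5p, miR-99b-3p, miR-100-5p and miR-125b-1-3p in wild-type control mice, and -0.095 and -0.054 for the miR-99b ratio. miR-125b-1-3p in TG mice became 0.058 with 1 and 0.062 with 2 factors, and 0.029 with wild-type control mice 1 and 2 counted as TG. That count gave 0.077 for miR-99a-3p in wild-type control mice, as did leaving both out (0.077), and 0.011 for miR-99a-5p between genotypes. miR-125a-3p in wild-type control mice became 0.0024 with 1 factor, the miR-125a ratio in TG mice -0.020 with 5 added counts, and miR-99b-5p in TG mice -0.0014 without libraries under 5000000 counts. With single mice left out, miR-125a-3p in wild-type control mice ran from -0.13 to 0.086, miR-125b-1-3p in TG mice from -0.18 to 0.25, the miR-125a ratio in TG mice from -0.086 to 0.064, and the miR-99b ratio from -0.027 to 0.056 in TG and -0.046 to 0.090 in wild-type control mice.

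Replicate numbers recur in every group although the mice differ. Deviations of same-numbered mice had a mean correlation of 0.27 over 9 pairs in TG mice by age (-0.82 to 0.78, 7 over 0.1), 0.060 over 5 pairs in wild-type control mice by age (-0.62 to 0.60, 2 over 0.1), 0.0075 over 5 pairs between genotypes at 3 months (-0.75 to 0.52, 2 over 0.1) and 0.41 over 11 pairs between genotypes at 6 months (-0.77 to 0.82, 9 over 0.1). The labels give the numbers no shared source, and in each comparison some pairs were below 0.1, so the mice were not treated as paired. With the replicate number as a block, 3 members and 124 miRNAs were called in TG mice, and 6 members and 250 miRNAs in wild-type control mice, where 4 arm ratios of members and 78 in all were called, while between genotypes 0 members and 0 miRNAs were called at either age. A mouse whose number occurs in only 1 of the groups compared adds nothing to a difference under the block. The age differences in wild-type control mice thus rest there on 5 pairs. These include 6-month mice 4 and 5, with 4238710 and 2816478 total counts. Under the block miR-125a-3p in wild-type control mice was 0.16, miR-125b-1-3p in TG mice 0.23 and the miR-125a ratio in TG mice -0.058.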
